A study of Mus with 9 samples.

Results

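Abcb1a and 9 other genes of the blood-brain barrier and of brain endothelial cells (Abcg2, Cldn5, Ocln, Pecam1, Cdh5, Slc2a1, Mfsd2a, Tek and Flt1) were followed through the hippocampal gene expression of SAMR1, SAMP8 and TG-treated SAMP8 mice. Abcb1a was picked because its average differed widely between the SAMP8 and SAMR1 strains, so that difference is the reason it is described and is not a finding. The other 9 genes were added to set vessel genes in general beside Abcb1a. The genes were found by their symbol among the 22206 probe sets of the Clariom S Mouse array, where each of the 10 was represented by 1 probe set, the group of short probes that reads a gene. SAMP8 is an inbred mouse strain with early decline of learning and memory, and SAMR1 is the related, senescence-resistant strain used as its control. TG is trigonelline, an alkaloid of coffee and fenugreek. Male mice of 16 weeks were used, an age that precedes dosing and testing, so the tissue came from older mice. The SAMR1 and SAMP8 groups were given vehicle, which is saline in the sample records and water in the methods. The TG-treated SAMP8 group received oral TG, 5 mg/kg daily, over 30 days and then during 8 days of water maze testing, which all 3 groups underwent. That dose is from the methods, and the records give 5 mg/ml. RNA came from the whole hippocampus of 3 mice in each group, 9 arrays in all by the records and the methods, whereas the series text speaks of duplicate samples.

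The deposited tables give 1 average per group and probe set, on the log2 scale, with no value for each array. No spread between mice, error or test can be given for any value here, and the precision of an average rests on its 3 arrays. All differences are differences of these averages (log2), and a gene is said to lie past the 1.5-fold limit when its difference exceeds 0.58 in either direction. That limit is a size and not a test. Because the strains differ in genome sequence as well as in ageing, the amount of a transcript and the binding of its probes cannot be told apart in comparisons of SAMP8 with SAMR1, whereas both SAMP8 groups are of 1 strain.

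The blood-brain barrier is formed by the endothelial cells of brain capillaries, which are sealed to each other by tight junctions and carry selected nutrients inward through dedicated transporters. Efflux pumps on the face toward the blood, among them P-glycoprotein and the breast cancer resistance protein, return many drugs and foreign compounds to the circulation. Pericytes and the end-feet of astrocytes surround these cells, and Wnt signals from neighbouring neural cells keep the barrier program on. Endothelial cells make up a small part of hippocampal tissue, and in RNA of the whole tissue fewer cells of a type and less RNA per cell cannot be told apart.

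Abcb1a, 1 of the 2 mouse genes for P-glycoprotein, lies on chromosome 5 at chr5:8567091-8748575 of GRCm38. Its average was 6.50 for SAMR1, 10.82 for SAMP8 and 9.90 for TG-treated SAMP8. The 2 SAMP8 groups thus lay far above SAMR1, with the treated group the lower of them. The SAMP8 average was higher than the SAMR1 average by 4.32, or 19.97-fold, which is the value Abcb1a was picked for. Across the array 10 probe sets, Abcb1a included, had a strain difference at least this high, of which 9 were on chromosome 4 and Abcb1a was the 1 on chromosome 5. Compared with the untreated SAMP8 group, the TG-treated average was lower by a difference of -0.92, or 1.89-fold, and 122 probe sets were at least this low. The treated group remained 10.56-fold above SAMR1, a difference of 3.40.

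Abcg2, the breast cancer resistance protein and the other main efflux pump of brain capillaries (chr6:58584491-58692451), had averages of 8.77 for SAMR1, 8.79 for SAMP8 and 8.75 for TG-treated SAMP8. The 3 averages lay within 0.04 of each other. The difference was 0.02 between the strains, where Tek alone among the 10 genes had a smaller one. It was -0.04 between treated and untreated SAMP8, the smallest of the 10.

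**Figure D1:**
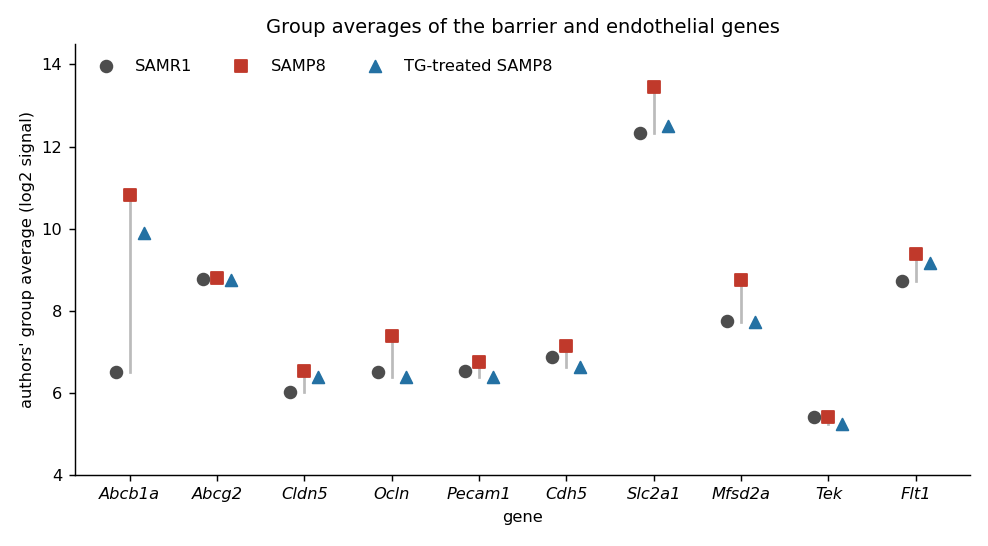
Authors' group averages (log2 signal, vertical axis) of the 10 genes (horizontal axis) in SAMR1 (circles), SAMP8 (squares) and TG-treated SAMP8 (triangles), each from 3 arrays. Grey lines join the lowest and the highest average of a gene, and heights are comparable only within a gene. Abcb1a runs from 6.50 to 10.82, a wider span than any of the other 9 genes, and in Ocln, Slc2a1 and Mfsd2a the treated average lies close to the SAMR1 average.

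The tight junction genes both had their highest average in SAMP8. Cldn5, which encodes claudin-5, the main sealing claudin of brain endothelium (chr16:18776847-18778262), had averages of 6.01 for SAMR1, 6.53 for SAMP8 and 6.39 for TG-treated SAMP8. Its strain difference of 0.52 and its treatment difference of -0.14 were both inside the 1.5-fold limit. Ocln, which encodes the junction protein occludin (chr13:100496504-100552718), had averages of 6.51, 7.38 and 6.38 in the same order. Occludin signal was thus 1.83-fold higher in SAMP8 than in SAMR1 (0.87) and 2.0-fold lower in the treated than in the untreated SAMP8 group (-1.0). The treated average of Ocln lay 0.13 below that of SAMR1 (-0.13).

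The nutrient carriers also had their highest average in SAMP8, with larger strain differences than Ocln. Slc2a1 encodes GLUT1, the carrier that brings glucose across the barrier, and is also used by astrocytes (chr4:119108745-119137330). Its averages were 12.34 for SAMR1, 13.45 for SAMP8 and 12.49 for TG-treated SAMP8. The SAMP8 average was 2.16-fold above SAMR1 (1.11), and the treated average was 1.95-fold below SAMP8 (-0.96). Mfsd2a encodes the transporter of lysophospholipids that carry docosahexaenoic acid, and it restrains vesicle traffic through brain endothelium (chr4:122946850-122961194). Its averages were 7.76, 8.75 and 7.73, which gives a 1.99-fold higher value in SAMP8 than in SAMR1 (0.99) and a 2.03-fold lower value with TG than without (-1.02). In comparison with SAMR1 the treated averages of both carriers differed little, by 0.15 for Slc2a1 and -0.03 for Mfsd2a.

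The adhesion molecules, which mark endothelial cells in all vessels, had small differences. Pecam1, the platelet and endothelial cell adhesion molecule CD31 (chr11:106654213-106715281), had averages of 6.52 for SAMR1, 6.74 for SAMP8 and 6.39 for TG-treated SAMP8. Cdh5, which encodes VE-cadherin of the endothelial adherens junction (chr8:104101613-104144504), had averages of 6.88, 7.13 and 6.63. The strain differences were 0.22 for Pecam1 and 0.25 for Cdh5. The treatment differences were -0.35 and -0.50, the latter a 1.41-fold lower average, and neither gene passed the 1.5-fold limit in any comparison.

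Among the receptor kinases, Flt1 and Tek differed. Flt1 encodes a receptor of vascular endothelial growth factor (chr5:147561604-147726438), and its averages were 8.72 for SAMR1, 9.38 for SAMP8 and 9.16 for TG-treated SAMP8. Its strain difference of 0.66 (1.58-fold) was just past the limit, its treatment difference was -0.22, and the treated group stayed 0.44 above SAMR1. Relative to probe sets of like signal the strain difference of Flt1 was 0.52, inside the limit. Tek, which encodes the angiopoietin receptor Tie2 (chr4:94739086-94874976), had averages of 5.41, 5.40 and 5.23. It was the only 1 of the 10 genes whose SAMP8 average was not above that of SAMR1 (-0.01), and its treatment difference was -0.17.

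**Figure D2:**
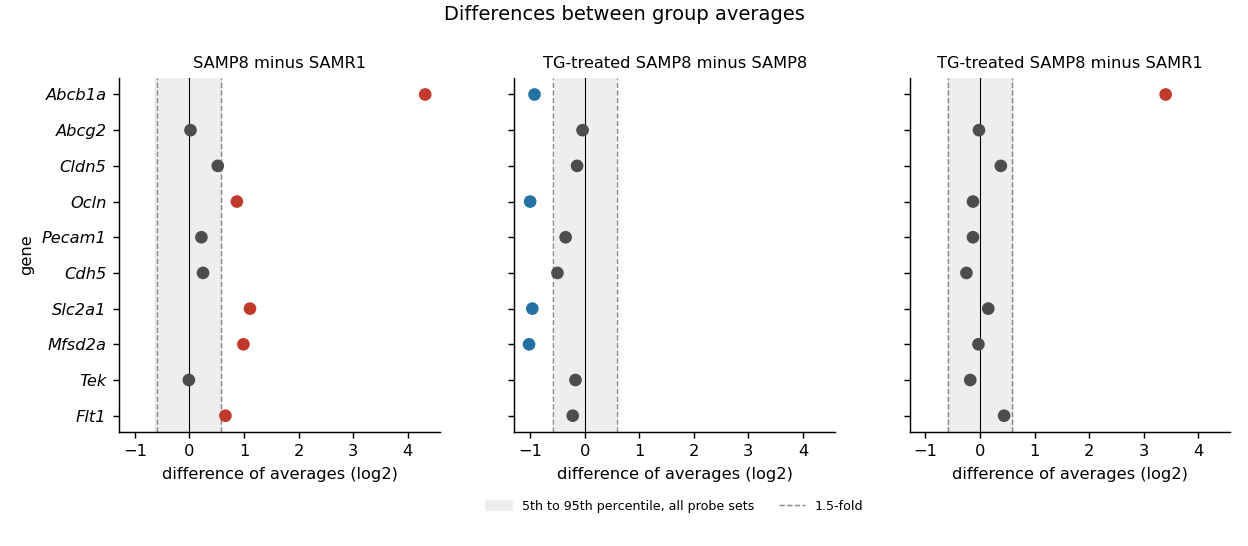
Differences of group averages (log2, horizontal axis) of the 10 genes (vertical axis) in 3 comparisons. Red and blue points lie above and below the 1.5-fold limit (dashed lines), and grey bands span the 5th to the 95th percentile of all 22206 probe sets. Between the strains 5 genes lie past the limit on the high side, with treatment 4 lie past it on the low side, and against SAMR1 the treated group has Abcb1a alone past it.

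Counted together, 5 of the 10 genes were higher in SAMP8 than in SAMR1 past the 1.5-fold limit (Abcb1a, Ocln, Slc2a1, Mfsd2a and Flt1) and 0 were lower. Across all probe sets 5% were higher and 6.08% lower past this limit. Abcb1a was picked on this comparison, and without it the count was 4 of 9. The median difference of these 9 genes was 0.52 against 0.00 over all probe sets. All 10 genes were chosen with earlier results of these data known, so these counts are a description. The strain difference of Abcb1a exceeded the median of the other 9 by 3.80, or 13.93-fold, and the highest among the 9 was 1.11 in Slc2a1.

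In the comparison of TG-treated with untreated SAMP8 mice, 4 of the 10 genes were lower past the limit (Abcb1a, Ocln, Slc2a1 and Mfsd2a) and 0 were higher. Abcb1a was picked for a high SAMP8 average against SAMR1. Without it the count was 3 of 9, with a median of -0.35. Over the array 3.74% of probe sets were lower and 4.48% higher. All 10 averages were lower with TG than without, from -0.04 in Abcg2 to -1.02 in Mfsd2a, with a median of -0.42 against 0.01 over all probe sets. Here Abcb1a did not stand apart, since Ocln, Slc2a1 and Mfsd2a had lower differences, and its difference lay 0.57 below the median of the other 9 (-0.57). When the median of 34 other endothelial genes was taken as the reference in place of the 9, that gap was -0.89. Both comparisons use the same SAMP8 averages, so an error in an SAMP8 average that raises a strain difference also lowers the treatment difference of that gene. The comparisons are therefore not independent of each other.

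Compared with SAMR1, 1 of the 10 genes was higher in treated SAMP8 past the limit (Abcb1a) and 0 were lower. This comparison uses the SAMR1 averages on which Abcb1a was picked, so its value here is again a description, and without it 0 of 9 genes passed the limit. The array-wide shares were 5.62% higher and 4.83% lower. The other 9 genes lay between -0.25 in Cdh5 and 0.44 in Flt1, with a median of -0.03, and the difference of 3.40 in Abcb1a was 3.43 above that median. Ocln, Slc2a1 and Mfsd2a, which were lower with TG past the limit, had treated averages within 0.15 of SAMR1.

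The neighbours of Abcb1a on chromosome 5 were set beside it, because its difference was found between strains that differ in sequence. In total 12 other genes with a probe set lie within 1 Mb. Abcb1b, the other mouse gene for P-glycoprotein and the nearest gene on the distal side at a gap of 49.6 kb (chr5:8798147-8866314), had averages of 5.17 for SAMR1, 7.12 for SAMP8 and 6.79 for TG-treated SAMP8. Its SAMP8 average was 3.86-fold above SAMR1 (1.95) and, as with Abcb1a, the treated group stayed above SAMR1 (1.62), while the treatment difference was -0.33. The genes are close relatives in sequence, and whether any probe reads both was not tested. Abcb4, which encodes the phosphatidylcholine exporter of liver bile canaliculi (chr5:8893614-8959226), had averages of 5.48, 5.87 and 5.52 and no difference past the limit.

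On the other side, Rundc3b overlaps Abcb1a in the annotation and had averages of 10.01, 10.52 and 9.72. Its strain difference was 0.51 and its treatment difference -0.80, and whether probes of either gene read the other was not tested. Dbf4, which encodes the regulatory subunit of the kinase that starts DNA replication, lies 144.4 kb from Abcb1a and had averages of 5.98, 6.62 and 5.99. Its SAMP8 average was 0.64 above SAMR1 and the treated average 0.63 below SAMP8 (-0.63). Slc25a40, a mitochondrial carrier gene between them, had differences of 0.04 and 0.29. Over the 12 neighbours 2 were higher between the strains past the limit (Dbf4 and Abcb1b), 0 were lower and the median was 0.02. The shares over all probe sets were 5% higher and 6.08% lower. With TG 2 of the 12 were lower (Dbf4 and Rundc3b), 0 were higher and the median was -0.28. Over the array 3.74% were lower and 4.48% higher with TG. Against SAMR1 the treated group had 1 of the 12 higher (Abcb1b) and 3 lower (Adam22, Crot and Tmem243), with a median of -0.17. Array-wide, 5.62% were higher and 4.83% lower there. The median treatment difference of the genes within 1 Mb of each of the other 9 genes, a comparison chosen after the values were seen, ran from -0.07 to 0.19.

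**Figure D3:**
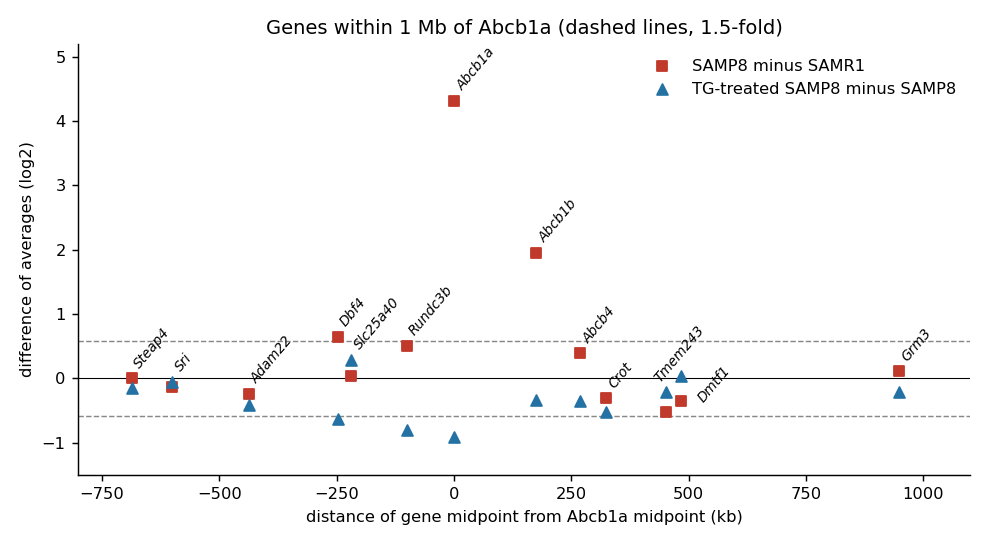
Differences of group averages (log2, vertical axis) of Abcb1a and the 12 genes within 1 Mb, by the distance of each gene's midpoint from that of Abcb1a (kb, horizontal axis). Squares are SAMP8 minus SAMR1, triangles are TG-treated minus untreated SAMP8, and dashed lines mark the 1.5-fold limit. Abcb1a at 4.32 and Abcb1b at 1.95 stand above the other squares, which lie between -0.53 and 0.64.

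The ABC transporter family was represented by 50 genes. Between the strains 6 were higher past the limit, namely Abcb1a, which was picked on this difference, Abcb1b, Abcb8 (0.62), Abcc1 (0.80), Abcd2 (0.73) and Abcg1 (0.84). Abca1, the cholesterol exporter, was lower (-0.60), as were Abca8a (-0.81) and Abca17 (-0.87). Over all probe sets 5% were higher and 6.08% lower. Without Abcb1a and Abcb1b the remaining 48 genes ranged from -0.87 to 0.84, around a family median of 0.07. With TG 2 of the 50 were lower past the limit, Abcb1a and Abcc1 (-0.80), and 1 was higher, Abca13 (0.59), around a median of -0.05. The array-wide shares with TG were 3.74% lower and 4.48% higher. Abcc1, the multidrug resistance-associated protein MRP1, had averages of 6.37 for SAMR1, 7.17 for SAMP8 and 6.37 for TG-treated SAMP8.

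The genes whose 3 averages, each centred on its own mean, lay nearest to those of Abcb1a were all on chromosome 4. Because Abcb1a was picked for a wide strain difference, such a search mainly returns probe sets with a similar one. Whether the nearest probe sets read separate transcripts was not tested. The nearest was Ccl27a, a chemokine gene, at a Euclidean distance of 0.58 over the 3 averages, with 9.88 for SAMR1, 13.92 for SAMP8 and 13.81 for TG-treated SAMP8. The predicted genes Gm10597, with 2 probe sets of the same values at 0.68, and Gm13308 at 0.85 came next, and Fam205a1 at 0.93 was the last of the nearest 5 probe sets. None of these had a treatment difference as low as that of Abcb1a, with values from -0.14 to 0.19. Off chromosome 4 the nearest was Nrip1, a nuclear receptor corepressor gene on chromosome 16 named after its values were seen, at 0.95, with averages of 8.06, 11.04 and 10.81.

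Further lists of barrier and endothelial genes were described by the same limit. These lists, and the marker lists below, were chosen with earlier results of these data known. Over all probe sets 5% were higher and 6.08% lower past the limit between the strains. With TG 4.48% were higher and 3.74% lower, and in treated SAMP8 against SAMR1 5.62% and 4.83%. Of 36 pan-endothelial genes 34 had a probe set, of which 3 were higher between the strains past the limit and 1 was lower, with a median of 0.13. The highest was Eng, the endothelial TGF-beta co-receptor (0.95), and the lowest Icam2, an endothelial adhesion molecule (-0.89). With TG 2 of the 34 were higher and 2 lower, around a median of -0.04, with Icam2 at the high end (0.90) and Ptprb, the endothelial phosphatase VE-PTP, at the low end (-0.82). Against SAMR1 the treated group had 3 of the 34 higher and 0 lower, from Ptprb (-0.51) to Eng (1.06). The medians of this list were thus nearer to 0 than those of the 9 genes set beside Abcb1a, 0.52 and -0.35. In SAMR1 the mean level of the list was 5.88, below the array median of 6.09, and its lowest average was 3.07. The part of signal level in this contrast was not tested.

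Other barrier transporters lay lower with TG. Of 20 such genes 5 (25%) were lower past the limit in the treated than in the untreated SAMP8 group, and 0 were higher. Over the array these shares were 3.74% and 4.48%. Of the 20 differences 19 were below 0, with a median of -0.34, and which cells gave the signal was not tested. The lowest was Slco1a4, the organic anion carrier Oatp1a4 of the barrier, with averages of 11.06 for SAMR1, 11.62 for SAMP8 and 10.62 for TG-treated SAMP8 (-1.0). The others were Abcc1 (-0.80), the organic anion transporter gene Slc22a8 (-0.75), the lactate carrier gene Slc16a1 (-0.62) and the glutamine carrier gene Slc38a3 (-0.62), and the highest of the list was Slco2b1 (0.18). Between the strains 2 of the 20 were higher, Abcb1b (1.95) and Abcc1 (0.80), and 0 were lower, around a median of 0.18, with the iron exporter gene Slc40a1 lowest (-0.57). Against SAMR1 the treated group had 1 higher (Abcb1b, 1.62) and 3 lower past the limit, the lowest of which was the thyroid hormone carrier gene Slco1c1 (-0.93).

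Of 16 other junction genes 15 had a probe set. Between the strains 3 were higher past the limit and 0 lower, with a median of 0.33, from the junctional adhesion molecule gene F11r (-0.52) to Cldn1 (0.65). With TG 1 was lower, the catenin gene Ctnnd1 (-0.60), and 0 were higher, with Cldn3 highest (0.43) and a median of -0.20. In the treated group against SAMR1, Cldn3 was the 1 gene past the limit (0.84) and Tjp1, which encodes ZO-1, was lowest (-0.32). Of 16 genes of the Wnt pathway that induces the barrier, 15 had a probe set and 0 passed the limit in either direction between the strains, from the co-receptor gene Lrp6 (-0.49) to Apcdd1 (0.37), with a median of 0.15. With TG the co-receptor gene Lrp5 was higher (0.63), the receptor gene Fzd4 was lowest at -0.56, and the median was -0.22. Against SAMR1 the treated group had Lrp5 higher (0.81), and Fzd4 and Lrp6 lower (-0.68 and -0.82).

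The ligands and receptors around Flt1 and Tek were taken from a list of 13 VEGF and angiopoietin genes, of which 12 had a probe set. Vegfa, the growth factor that binds Flt1, had averages of 11.19 for SAMR1, 10.70 for SAMP8 and 11.57 for TG-treated SAMP8, with differences of -0.49 between the strains and 0.87 with TG, both opposite in sign to those of Flt1. Angpt1, the ligand of Tek, had averages of 8.12, 8.94 and 8.20, and so was higher in SAMP8 than in SAMR1 (0.82) and lower with TG (-0.74), while Tek itself had differences of -0.01 and -0.17. With TG 3 of the 12 were lower past the limit (Ptprb, Nrp2 and Angpt1) and 1 was higher (Vegfa), with a median of -0.13. Between the strains Angpt1 was the 1 gene past the limit, with a median of 0.03. In the treated group against SAMR1 the semaphorin and VEGF co-receptor gene Nrp2 was lower past the limit (-0.90) and Vegfa was highest (0.38).

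Of 12 genes of endothelial activation and leakage, 1 was lower past the limit between the strains, the chemokine gene Ccl2 (-0.84), and 0 passed it with TG, with medians of 0.03 and -0.04. Mean levels of this list were low, at 4.09 for SAMR1, 4.08 for SAMP8 and 4.10 for TG-treated SAMP8, beside array medians of 6.09, 6.04 and 6.07. At such low signal, few genes past the limit does not mean that these genes were unchanged. Cav2 was highest between the strains (0.37) and lowest with TG (-0.25), and Ccl2 was highest with TG (0.42). Plvap, which marks fenestrated and leaky vessels, had averages of 2.98 for SAMR1, 3.14 for SAMP8 and 3.14 for TG-treated SAMP8. Of 8 xenobiotic receptors and their partners, several of which are known to act on transcription of P-glycoprotein genes, 0 passed the limit in any comparison. Their strain differences ran from -0.44 in Hsf1 to 0.17 in Nr3c1, with a median of -0.14, and their treatment differences from -0.26 in Arnt to 0.28 in Rxra, with a median of 0.05.

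**Figure D4:**
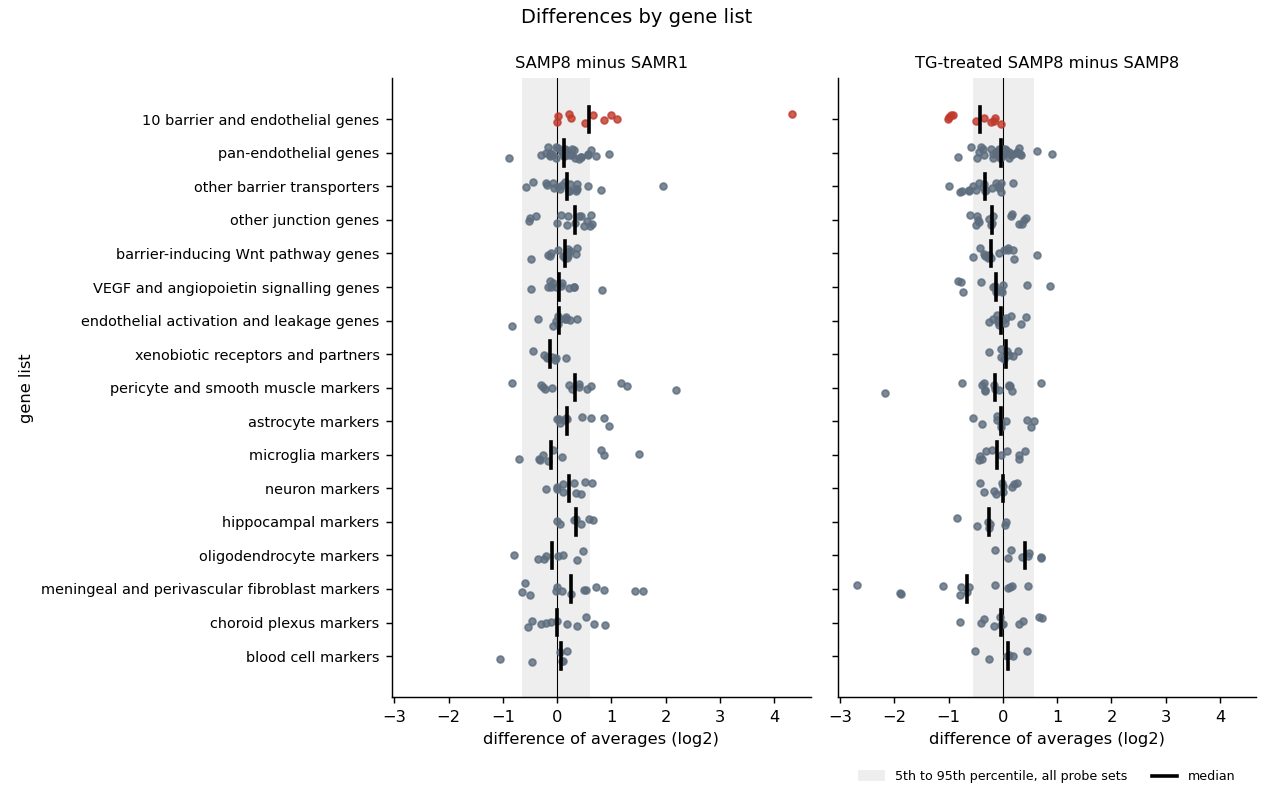
Differences of group averages (log2, horizontal axes) between the strains (left) and with treatment (right) for the 10 genes and 16 gene lists (vertical axis). Each point is a gene, black bars are medians, and grey bands span the 5th to the 95th percentile of all probe sets. On the right the 10 genes (median -0.42), other barrier transporters (-0.34) and meningeal and perivascular fibroblast markers (-0.66) lie lower than the pan-endothelial genes (-0.04).

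Markers of other cell types in the hippocampus were measured on the same arrays. Markers of neurons were at mean levels of 14.39, 14.61 and 14.57 in SAMR1, SAMP8 and TG-treated SAMP8, and hippocampal markers at 9.77, 10.11 and 9.83. Pericyte and smooth muscle markers, which are of cells that lie against the endothelium, had mean levels of 5.70, 6.09 and 5.84. Between the strains 4 of these 14 genes were higher past the limit and 1 lower, with a median of 0.34, and the pericyte gene Rgs5 had averages of 8.94, 10.23 and 10.06. With TG 2 were lower and 1 higher, with a median of -0.16. The smooth muscle actin gene Acta2 was highest between the strains (2.19) and lowest with TG (-2.17), whereas Tagln, another smooth muscle gene, had the opposite differences (-0.83 and 0.71).

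Markers of meningeal and perivascular fibroblasts, which lie outside the vessel wall and on the brain surface, were also lower with TG in most of the list. Their mean levels were 6.76 for SAMR1, 7.08 for SAMP8 and 6.33 for TG-treated SAMP8. With TG 8 of 13 (61.5%) were lower past the limit and 0 were higher, beside 3.74% and 4.48% over the array. The median was -0.66, from the prostaglandin D synthase gene Ptgds (-2.69) to Lum (0.46). The list was chosen with earlier results known, and it holds Ptgds and Igf2, which the paper gives among its most downregulated genes. Between the strains 4 were higher and 2 lower, with a median of 0.25, from Col1a2 (-0.64) to Igf2 (1.58). The part of these cells in the differences of Ocln, Slc2a1 and Mfsd2a was not tested.

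Astrocyte markers, of cells that also use Slc2a1, had mean levels of 11.69, 12.03 and 12.07, with 3 of 10 higher past the limit between the strains and 0 past it with TG. They ranged with TG from Gjb6 (-0.55) to S100b (0.58), and between the strains from S100b (-0.01) to Gfap (0.95). Microglial markers had medians of -0.12 in both comparisons, with 3 of 10 higher (Aif1 highest, 1.51) and 1 lower (Trem2, -0.70) between the strains and 0 past the limit with TG, where values ran from Aif1 (-0.44) to Trem2 (0.40). Of the neuron markers 1 of 10 was higher between the strains, Stmn2 (0.64), and Gad2 was lowest in both comparisons (-0.21 and -0.43), with Tubb3 highest with TG (0.26). Of 7 hippocampal markers 2 were higher between the strains, with Bok highest (0.66) and Neurod6 lowest (-0.01), and 1 was lower with TG, Prox1 (-0.85), with Fibcd1 highest (0.05). Hippocampal markers had medians of 0.34 between the strains and -0.26 with TG, the same signs as in the 9 genes set beside Abcb1a (0.52 and -0.35). The medians were 0.21 and -0.01 for neuron markers and 0.18 and -0.03 for astrocyte markers. Oligodendrocyte markers had a median of -0.10 between the strains, from Mobp (-0.80) to Cnp (0.47), and of 0.41 with TG, where 2 of 8 (25%) were higher past the limit, Mag and Cldn11 (0.71 each), and 0 were lower. Choroid plexus markers had medians of -0.01 and -0.04, with Ttr highest in both comparisons (0.88 and 0.72), Otx2 lowest between the strains (-0.53) and Kl lowest with TG (-0.79). Of the 6 measured blood cell markers 1 was lower between the strains, Alas2 (-1.06), Ptprc was highest there (0.19) and lowest with TG (-0.52), and Alas2 was highest with TG (0.44).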

How the data were processed

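Hippocampal RNA of 9 mice, 3 per group, was hybridized to Clariom S Mouse arrays, and arrays were grouped by the sample records. The authors normalized the raw intensities with the SST-RMA algorithm in TAC (version 4.0.1 in the series text), which brings all arrays to a common scale, so shifts common to all genes are removed. The deposited tables, 1 per comparison, hold the authors' group averages as log2 signal for 22206 probe sets. They also hold 3 columns each of the authors' own comparison, a signed linear fold change, a p-value and an adjusted p-value, which were not used.

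The tables list identical SAMP8 averages and were therefore joined. Differences of averages were computed, and a linear fold of 1.5 was the limit. With averages alone there was no test, and the number of arrays limits the precision. Coordinates are those of the RefSeq annotation of GRCm38, matched by gene symbol, since the tables hold none. Of the listed genes 202 had a probe set, 3 of them under an older symbol, and 10 had none. Differences were also taken relative to the group medians, and to the median of probe sets in the same of 20 classes of mean signal. Other alternatives were the mean over probe sets, a filter that dropped the dimmest 25% of probe sets, limits of 1.2-fold and 2-fold, other reference genes, and windows of 0.5 and 2 Mb.

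The genes named are the 10 genes, Abcb1b and Abcb4, neighbours and ABC family members past the limit, the nearest neighbours, the 5 nearest patterns, and the highest and lowest gene of each list, of which 1 is not reported here. Members and lists were chosen with earlier results of these data known. The computation of differences and counts was tested on simulated data. Python 3.11.15, numpy 2.4.6, pandas 2.3.3 and matplotlib 3.10.9 were used. The descriptions attached to the sample records concern a macrophage cell line and were set aside, and values per array were not analysed here.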

Additional observations from a re-analysis of the deposited data

How the results depend on the processing

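Centring each group on its median over all probe sets moved none of the differences of the 10 genes by 0.1 or more. Averaging probe sets could not move them, because each gene had 1 probe set. Leaving out low signals could not either, because it does not alter the values of the probe sets kept. The medians of SAMR1, SAMP8 and TG-treated SAMP8 lay 0.02, -0.03 and 0.00 from the median over all groups, and their removal put Abcb1a at 4.37 between the strains, -0.95 with TG and 3.42 against SAMR1. Relative to probe sets of like signal, the strain difference of Abcb1a was 4.18, its excess over the median of the other 9 genes was 3.66, Abcg2 was at -0.12 and Flt1 at 0.52. With the pan-endothelial genes as reference the excess was 4.19 between the strains and -0.89 with TG. Leaving out each of the 9 reference genes in turn gave 3.73 to 3.94 between the strains, with 3.94 without Ocln, Slc2a1, Mfsd2a or Flt1, and -0.64 to -0.50 with TG. At a limit of 2-fold, 2 of the 10 genes were higher between the strains (0.797% of all probe sets) and 1 was lower with TG (0.324%). At 1.2-fold, 3 were higher in treated SAMP8 than in SAMR1 (20%). The counts near Abcb1a were the same with windows of 0.5 and 2 Mb, and no difference past the limit changed sign. No paired analysis was possible because the tables hold group averages alone, and for the same reason no array could be left out in turn. The precision of each average rests on 3 arrays, and signals near the floor of the array, such as that of Plvap, limit what a small difference can show.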
